A study of Mus musculus with 12 samples.

Results

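A set of 10 surface proteins through which macrophages start, tune or restrain immune responses were followed in the RNA-Seq data of WT and IGF2BP2 KO macrophages. They are Cd274 (PD-L1) and Pdcd1lg2 (PD-L2), Cd80 and Cd86, Cd40, Cd200r1, Sirpa and Cd47, Havcr2 (TIM-3), and Vsir (VISTA). These 10 genes were chosen by name from the 38887 genes of the deposited tables, and all 10 were among the 12846 genes expressed highly enough to be tested. The RNA came from bone marrow-derived macrophages (BMMs) of 3 WT and 3 IGF2BP2 KO mice, 3 to 4 months old, whose marrow cells had been differentiated with M-CSF. BMMs of each genotype were left untreated (M0) or received 20 ng/ml IL-4 for 8 h (M2), which gave 4 groups of 3 libraries (WT M0, WT M2, KO M0, KO M2). In the KO mice a Cre recombinase inserted into the Lyz2 locus, active in myeloid cells, removes floxed exons 4 and 5 of Igf2bp2, which encodes an RNA-binding protein. WT animals were littermates without floxed alleles, and only some of them carried Cre, so effects of Cre and of the deletion cannot be told apart.

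T cells integrate an antigen signal with signals from paired surface proteins. CD80 and CD86 bind CD28, which activates, and CTLA-4, which inhibits, while PD-L1 and PD-L2 bind the inhibitory receptor PD-1, and CD40 receives the CD40 ligand of activated T cells and signals through TRAF proteins to NF-kB. CD200R1 and SIRP alpha are inhibitory receptors of myeloid cells, CD47 is the SIRP alpha ligand that protects cells from phagocytosis, and TIM-3 and VISTA are inhibitory checkpoint proteins that macrophages also carry. IL-4 activates STAT6 and drives macrophages into alternative (M2) activation, for which PD-L2 is a known surface marker in the mouse.

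Total expected counts, which are estimated reads per gene with ambiguous reads divided among genes, were 24942666 to 29832430 per library in WT M0, 20011792 to 22744704 in WT M2, 26568719 to 37054582 in KO M0 and 27347077 to 39632770 in KO M2. Igf2bp2, the targeted gene, lay at 76.5 to 118 CPM (counts relative to a library's total) in WT M0 and 84.9 to 95.9 CPM in KO M0, and KO differed from WT by -0.11 on the log2 scale (SE 0.13, edgeR adjusted p = 0.656). In M2 it lay at 178 to 233 CPM in WT and 129 to 146 CPM in KO (log2 fold change -0.65, SE 0.13, edgeR adjusted p = 0.0285), a call lost in 6 of 16 other fits. Reads from the exons that remain are part of these whole-gene counts, which therefore check the labels only weakly. By Western blot and qPCR, measures unlike these counts, the paper reports almost no detectable IGF2BP2 protein or mRNA in KO BMMs. All 10 macrophage markers examined reached at least 1 CPM in every group, whereas Cd3d, Cd3e and Cd3g, which define T cells, were at 0 in all libraries. The 10 listed T cell markers nevertheless summed to 29.0 to 45.6 CPM per library, with Cd28 alone at 28.4 to 45.1 CPM. The 6 B cell markers summed to 4.78 to 8.93 CPM per library, with Cd79b alone at 4.76 to 8.85 CPM. The 6 markers of stromal cells summed to 29.8 to 53.3 CPM in WT M0 against 7.94 to 30.0 CPM in KO M0, and to 32.8 to 60.2 CPM in WT M2 against 9.02 to 26.6 CPM in KO M2. The 8 neutrophil markers summed to 9.27 to 24.1 CPM in WT M0 and 5.84 to 6.17 CPM in KO M0, and to 5.01 to 14.1 CPM in WT M2 and 5.31 to 6.52 CPM in KO M2. The part of these cells in the genotype differences below was not tested.

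Levels of the 10 genes spanned a wide range. In TPM, which is scaled to transcript length and can be compared between genes, Sirpa was the highest in every group, with 642 ± 65.0 (mean ± SD, n = 3) in WT M0 and 966 ± 88.1 in WT M2, followed by Cd47 with 189 ± 11.0 and 223 ± 6.72. Vsir ranked next in M0 of both genotypes, at 55.1 ± 7.26 TPM in WT and 91.2 ± 3.73 TPM in KO. In M2 that place was taken by Cd200r1, at 132 ± 8.08 TPM in WT and 125 ± 3.83 TPM in KO. The order then ran Cd200r1, Havcr2, Cd40, Cd274 and Cd80, Cd86, and Pdcd1lg2 in M0. Neighbours whose libraries overlapped were Cd200r1 and Havcr2 in WT M0 and Cd274 and Cd80 in M0 of both genotypes. In WT M2 the order was Vsir, Cd40, Cd274, Havcr2, Cd80, Pdcd1lg2 and Cd86, with overlap between Cd274 and Havcr2, while in KO M2 Cd40 stood above Vsir and no neighbours overlapped.

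**Figure D1:**
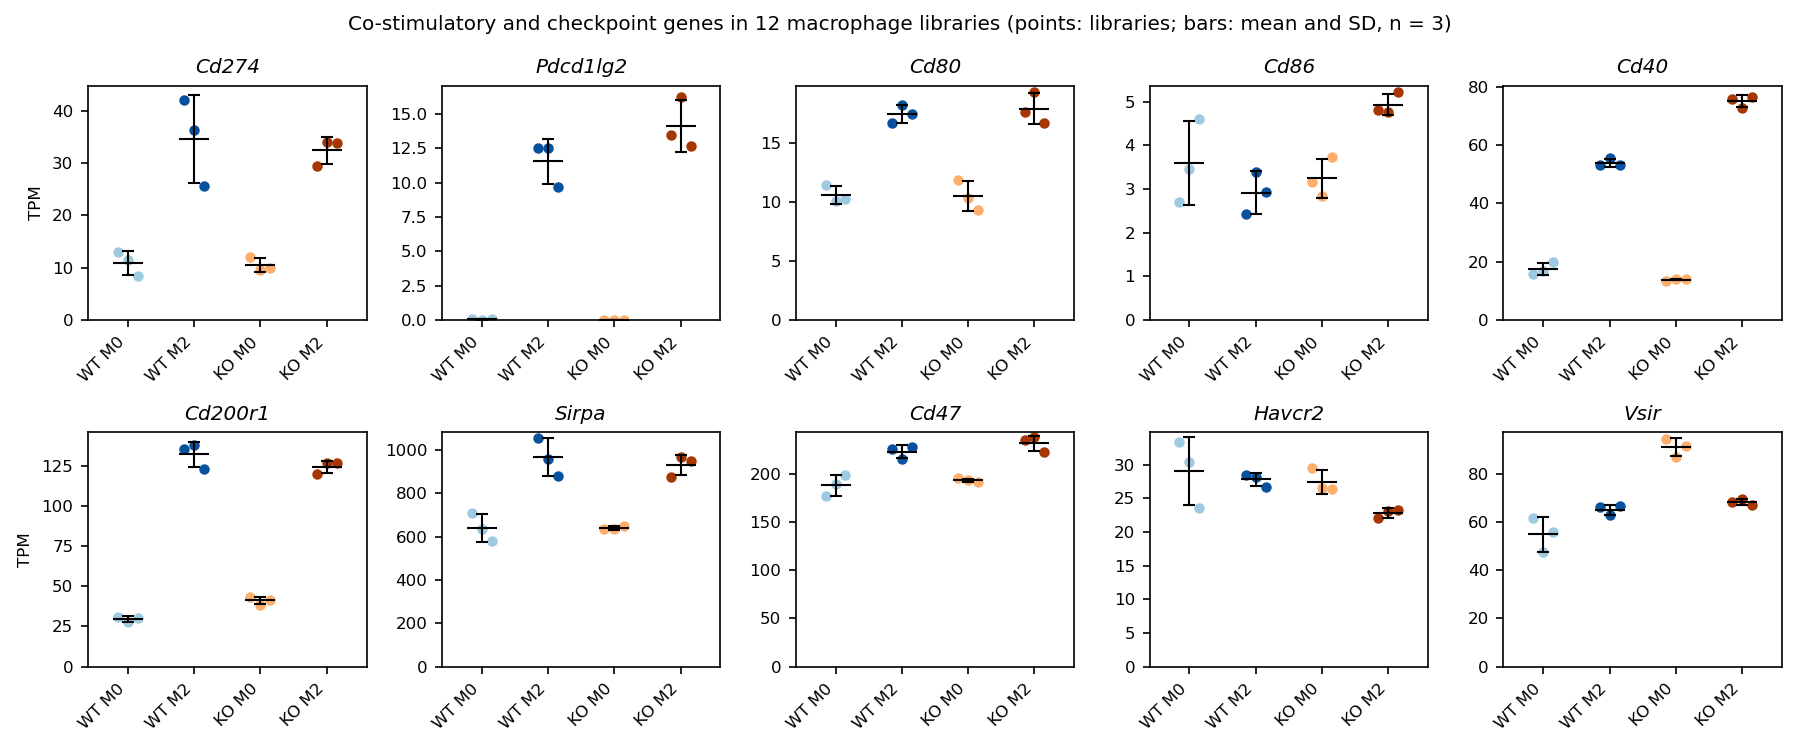
Level in TPM (vertical axes, linear from 0) of each of the 10 genes in the 12 libraries, by group. Points are libraries and bars are the mean and SD of 3. Pdcd1lg2 lies at or near 0 in M0 and between 9.67 and 16.22 TPM in M2, Cd40 is highest in KO M2, and Vsir is highest in KO M0.

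IL-4 raised most of the genes in both genotypes. In WT, 8 of the 10 rose and 0 fell, beside 50.0% of all genes tested that were called (edgeR adjusted p under 0.05), with 24.9% of all genes higher and 25.1% lower. In KO, 8 rose and Vsir fell, beside 52.8% called in all, 26.8% higher and 26.0% lower. Pdcd1lg2 is counted among the risers of both genotypes, although it passed the expression filter through its M2 libraries alone. The median log2 fold change of the 10 genes was 0.73 in WT and 0.74 in KO, beside -0.0076 and 0.014 over all genes tested. In CPM the WT M2 libraries lay wholly above the WT M0 libraries for 8 genes (groups did not overlap for 55.2% of all genes), and in KO they lay above for 8 and below for 2 (63.4% of all genes). In bulk RNA a smaller share of cells expressing a gene and less RNA per cell cannot be told apart.

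Between genotypes, few of the genes differed. In M0, 3 of 10 were called, with Vsir and Cd200r1 higher and Cd40 lower in KO, beside 9.78% of all genes tested (5.50% higher, 4.27% lower). In M2, Cd40 and Cd86 were called higher, beside 2.68% of all genes (1.21% higher, 1.46% lower). The response to IL-4 itself differed between the genotypes for Cd40, Cd200r1 and Vsir, 3 of 10 beside 3.24% of all genes (the KO response minus the WT response was above 0 for 1.11% and below 0 for 2.13%). Medians over the 10 genes were -0.03 in M0, 0.01 in M2 and 0.02 for the difference between the responses, and over all genes tested -0.00066, -0.00093 and 0.0065. Libraries in CPM did not overlap for 3 of the 10 genes in M0 (31.1% of all genes) and 4 in M2 (24.8%). These comparisons share groups, so a gene's values in them are not independent.

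**Figure D2:**
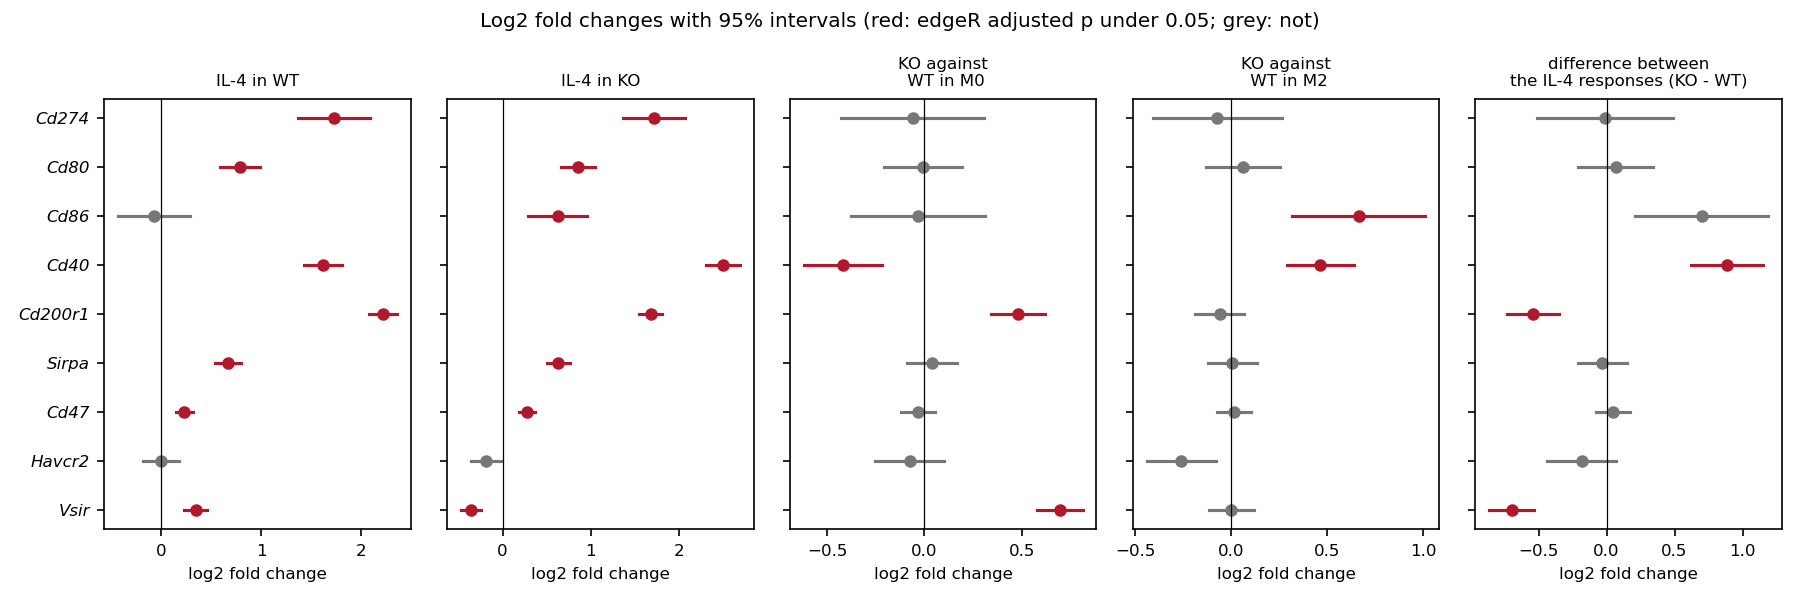
Log2 fold changes (points) with 95% intervals (lines) of 9 genes in the 5 comparisons, one panel each with its own horizontal scale. Red marks an edgeR adjusted p under 0.05. Pdcd1lg2, with 4 reads in all 6 M0 libraries together, is not drawn. The last panel gives the KO response minus the WT response, at 0.89 for Cd40, -0.54 for Cd200r1 and -0.70 for Vsir.

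The PD-1 ligands are neighbours on chromosome 19 of GRCm38, both on the plus strand. Cd274 spans chr19:29367455-29388095 and Pdcd1lg2 spans chr19:29410919-29471161, with starts 43.5 kb apart. The 250 bases before each start, as RefSeq places it on GRCm38.p6, are shown because both genes rose with IL-4, Pdcd1lg2 from next to no reads. They cover chr19:29367188-29367437 for Cd274 and chr19:29410669-29410918 for Pdcd1lg2 on the plus strand. Capitals mark the single match found to TTCNNNNGAA, the letters to which STAT6 is known to bind.
Cd274: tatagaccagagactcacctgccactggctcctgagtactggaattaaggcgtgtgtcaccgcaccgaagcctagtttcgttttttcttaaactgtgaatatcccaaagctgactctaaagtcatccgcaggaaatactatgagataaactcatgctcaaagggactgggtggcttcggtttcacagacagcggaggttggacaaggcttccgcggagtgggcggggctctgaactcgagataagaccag
Pdcd1lg2: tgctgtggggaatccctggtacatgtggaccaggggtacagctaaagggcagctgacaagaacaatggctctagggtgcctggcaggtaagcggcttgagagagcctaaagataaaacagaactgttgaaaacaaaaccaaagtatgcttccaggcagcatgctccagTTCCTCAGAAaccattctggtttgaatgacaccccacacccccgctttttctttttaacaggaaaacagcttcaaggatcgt
The match begins 82 bases before the Pdcd1lg2 start. The 6 of the 10 genes with a window in the table (Cd274, Pdcd1lg2, Cd80, Cd47, Havcr2 and Vsir) were searched on both strands for these letters and for TTCNNNGAA, GGGNNTTTCC and GAAANNGAAA, and no other match was found in the 250 bases. Windows were not at hand for Cd86, Cd40, Cd200r1 and Sirpa. Of all 32536 windows of this length, 5.89% hold TTCNNNNGAA, 7.04% TTCNNNGAA, 1.40% GGGNNTTTCC and 2.98% GAAANNGAAA, and a match describes the sequence only.

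Pdcd1lg2 was close to absent without IL-4 and well measured with it. The 3 WT M0 libraries held 2, 0 and 1 reads and the 3 KO M0 libraries 0, 0 and 1, while WT M2 held 249, 220 and 171 reads and KO M2 342, 564 and 427. Given as TPM, WT M2 measured 12.54, 12.49 and 9.67, and KO M2 measured 13.45, 16.22 and 12.64. Every M2 library stood far above every M0 library. Pooled over libraries, the rate of reads was 285 times higher in WT M2 than in WT M0 (95% exact interval 97.0 to 1384, from 640 against 3 reads) and 1260 times higher in KO (226 to 49811, from 1333 against 1 read), with intervals that cover counting error only. The edgeR adjusted p was 9.15e-10 in WT and 2.99e-10 in KO, for a gene that passed the expression filter through its M2 libraries alone. In M2 the KO libraries lay above the WT libraries, but their difference, 0.31 on the log2 scale with an SE of 0.16, did not pass the test (edgeR adjusted p = 0.291). Both genotypes are at or under 3 reads in M0, so no fold between them is given there.

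Cd274 was present at rest and rose about 3-fold. It measured 12.95, 11.47 and 8.39 TPM in WT M0, 41.97, 36.35 and 25.53 TPM in WT M2, 11.96, 9.54 and 9.93 TPM in KO M0, and 29.41, 33.97 and 33.89 TPM in KO M2. All M2 libraries exceeded all M0 libraries, and the genotypes overlapped in both states. The log2 fold change with IL-4 was 1.73 in WT (SE 0.17, edgeR adjusted p = 2.34e-06) and 1.72 in KO (SE 0.16, edgeR adjusted p = 1.80e-06). The genotypes differed by -0.06 in M0 and -0.07 in M2 (edgeR adjusted p = 0.868 and 0.840), and the responses by -0.01 with a 95% interval from -0.51 to 0.49. Because Pdcd1lg2 started from so little, its share of the summed PD-1 ligand TPM went from 0.363% ± 0.322 (mean ± SD, n = 3) in WT M0 to 25.3% ± 2.24 in WT M2, and from 0 in 2 and 0.301% in 1 of the KO M0 libraries to 30.3% ± 2.74 in KO M2. The WT M2 and KO M2 libraries overlapped in this share, at 23.0% to 27.5% and 27.2% to 32.3%.

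Of the 5 tested genes around the PD-1 ligands, 4 rose with IL-4 and 1 fell in both genotypes, beside 24.9% of all genes called higher in WT and 26.8% in KO. Values are given for WT and then KO. Jak2, the kinase of several cytokine receptors, starts 116 kb before Cd274 and changed by a log2 of 1.30 and 1.58 (edgeR adjusted p = 4.32e-08 and 7.27e-09). Plgrkt, a plasminogen receptor that starts 0.065 kb away on the minus strand, changed by 0.69 and 0.73 (edgeR adjusted p = 1.59e-06 and 6.13e-07). Ric1, 155 kb beyond the Cd274 start, changed by 0.57 and 0.56 (edgeR adjusted p = 0.000428 and 0.000406). Insl6, a relaxin family peptide gene, changed by 0.35 and 0.73 (edgeR adjusted p = 0.0392 and 0.000267), and its call in WT was lost in 10 of 16 other fits. Ermp1, the farthest of the set, fell by 0.88 on the log2 scale in WT and by 0.77 in KO (edgeR adjusted p = 6.56e-07 and 1.45e-06). Rln1 was too low to be tested.

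**Figure D3:**
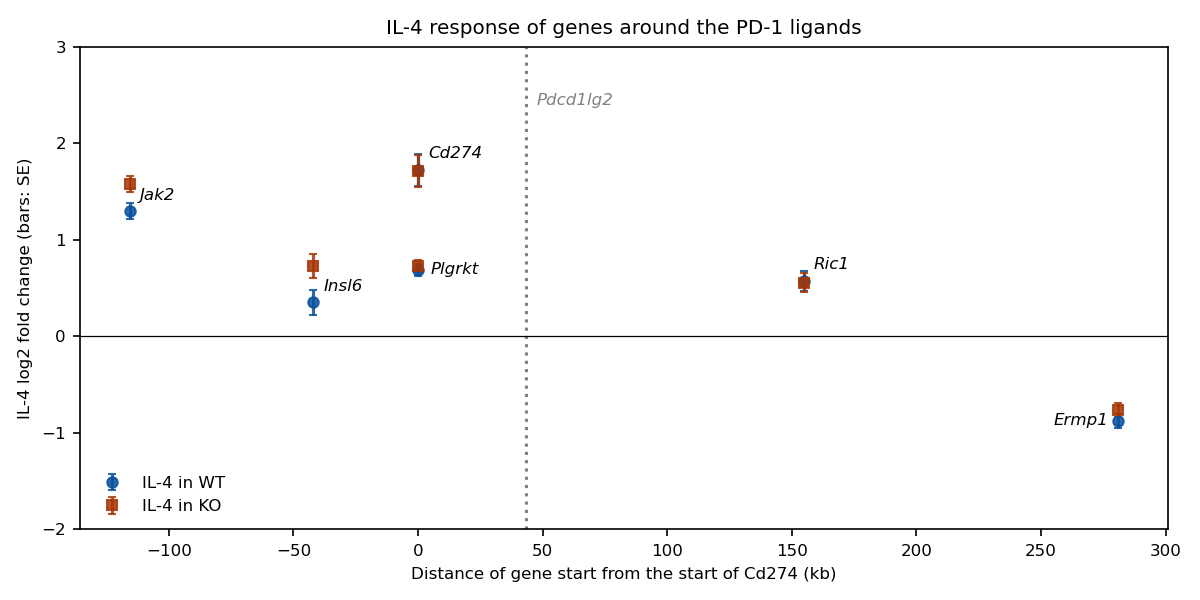
IL-4 response as log2 fold change (vertical axis, bars are SE) of the tested genes around the PD-1 ligands, against the distance of each gene's start from the start of Cd274 in kb. Circles are WT and squares KO. Cd274 lies at 1.73 and 1.72, Jak2 at 1.30 and 1.58, and Ermp1 below 0. The dotted line gives the position of Pdcd1lg2, whose fold is not drawn.

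Of 16 genes that act on PD-L1 transcription or turnover, 9 rose and 4 fell with IL-4 in WT (beside 24.9% of all genes called higher and 25.1% lower), and 7 rose and 4 fell in KO (beside 26.8% and 26.0%). Irf4, a transcription factor of alternative activation, showed the largest rise (log2 fold change 3.50 in WT and 3.38 in KO, edgeR adjusted p = 3.89e-07 and 2.08e-07), followed by Jak2. Hif1a, the hypoxia-inducible factor, and Cmtm4, which protects PD-L1 protein from degradation, fell by 0.68 and 0.58 in WT and by 0.63 and 0.84 in KO (edgeR adjusted p at most 7.54e-05 for both genes). The list's median log2 fold change was 0.19 in WT and 0.12 in KO, beside -0.0076 and 0.014 over all genes tested. In M0, Jak2 was lower in KO (log2 fold change -0.50, edgeR adjusted p = 0.00354), as was Irf1 (-0.27, edgeR adjusted p = 0.0284), although the Irf1 call was lost in 8 of 16 other fits. No gene of the list was called between genotypes in M2, by edgeR or in the other fits, beside 2.68% of all genes. The KO response of Stat6 minus the WT response was -0.23 (edgeR adjusted p = 0.0480), a call lost in 12 of 21 other fits.

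Of the CD28 and CTLA-4 ligands, Cd80 rose with IL-4 in both genotypes and Cd86 in KO. Cd80 measured 11.44, 10.05 and 10.23 TPM in WT M0, 16.68, 18.25 and 17.47 in WT M2, 11.89, 10.31 and 9.31 in KO M0, and 17.62, 19.33 and 16.74 in KO M2. The M2 libraries all stood above the M0 libraries, and the genotypes overlapped. Cd80 rose by a log2 of 0.79 in WT (SE 0.09, edgeR adjusted p = 1.34e-05) and 0.85 in KO (SE 0.09, edgeR adjusted p = 3.82e-06), and the responses differed by 0.07 (95% interval -0.21 to 0.34).

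Cd86 was the lowest of the 10 genes in M2 and rose in KO. Its levels were 2.70, 3.46 and 4.61 TPM in WT M0, 2.43, 3.40 and 2.93 TPM in WT M2, 3.16, 2.84 and 3.73 TPM in KO M0, and 4.81, 4.77 and 5.22 TPM in KO M2. The KO M2 libraries stood above all the others, whereas the other groups overlapped. IL-4 gave a log2 fold change of -0.07 in WT (SE 0.17, edgeR adjusted p = 0.749) and 0.63 in KO (SE 0.15, edgeR adjusted p = 0.00392). The responses thus differed by 0.70 (SE 0.23, edgeR adjusted p = 0.119). This difference was called in only 1 of 9 alternative fits, that with the mouse as a block (0.69, edgeR adjusted p = 0.0284). It was called in 1 of 12 fits without 1 library. In M2 the gene was higher in KO by 0.66 (SE 0.16, edgeR adjusted p = 0.0487). This call rests on every library, since it was lost in each of the 6 fits that left 1 out (edgeR adjusted p 0.0671 to 0.167), and Cd86 had only 74 to 80 reads per WT M2 library. The ratio of Cd80 to Cd86 in TPM was 3.12 ± 1.03 (mean ± SD, n = 3) in WT M0, 6.06 ± 0.754 in WT M2, 3.30 ± 0.696 in KO M0 and 3.64 ± 0.423 in KO M2, with no overlap between the genotypes in M2.

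Cd40, the receptor for the T cell protein CD40 ligand, showed the largest gain of response in KO among the 9 genes other than Pdcd1lg2. It measured 15.81, 16.63 and 19.74 TPM in WT M0 and 13.53, 14.07 and 13.93 TPM in KO M0, so the KO libraries lay below. After IL-4 it reached 53.07, 55.56 and 53.19 TPM in WT and 75.84, 72.79 and 76.54 TPM in KO, so the KO libraries lay above. The log2 fold change with IL-4 was 1.61 in WT (SE 0.09, edgeR adjusted p = 1.04e-08) and 2.50 in KO (SE 0.09, edgeR adjusted p = 1.73e-10). The difference between the responses was 0.89 (SE 0.12, edgeR adjusted p = 0.00405) and was called in each of the 9 alternative fits and 12 fits without 1 library. Mouse by mouse, the log2 change in CPM was 1.38 to 1.79 in the 3 WT mice and 2.43 to 2.66 in the 3 KO mice.

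Within each state the Cd40 difference was smaller and less firm. KO was lower by 0.42 on the log2 scale in M0 (log2 fold change -0.42, SE 0.09, edgeR adjusted p = 0.0150) and higher by 0.46 in M2 (SE 0.08, edgeR adjusted p = 0.0156). The M0 call was lost without WT M0 library 2 (edgeR adjusted p = 0.0556), KO M0 library 1 (0.0577) or KO M0 library 2 (0.0514), and with only the 6 libraries of the comparison (0.0579). The M2 call was lost without WT M2 library 2 (0.0695), KO M2 library 2 (0.0559) or KO M2 library 3 (0.0735).

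Among genes of CD40 and NF-kB signalling, those called in M0 were lower in KO, as Cd40 was. Of 20 listed genes, all tested, 0 were higher and 9 lower in KO in M0 (beside 4.27% of all genes called lower), and 2 higher and 0 lower in M2 (beside 1.21% and 1.46%). For the KO response to IL-4 minus the WT response, 8 were called above 0 (beside 1.11% of all genes) and 0 below. The list's medians were -0.17, 0.08 and 0.15, and most of its genes were not called in each of the 3 comparisons. Nfkb2, the precursor of the noncanonical NF-kB subunit p52, differed by -0.76 on the log2 scale in M0 (SE 0.07, edgeR adjusted p = 0.000151), with 175 CPM in WT and 104 CPM in KO. Traf1, an adaptor of CD40, was lower in M0 by -0.55 (SE 0.09, edgeR adjusted p = 0.00349). The other 7 were Relb, Nfkb1 and Birc3, and Nfkbia, Nfkbib, Nfkbie and Tnfaip3, which restrain NF-kB. In M2, Traf1 (0.50, edgeR adjusted p = 0.0403) and Nfkbib (0.28, edgeR adjusted p = 0.0403) were higher, with calls lost in 10 and 8 of 16 other fits. Over the fits without 1 library the count of lower genes in M0 was 6 to 8, that of higher genes in M2 was 0 to 1, and that of differences above 0 between the responses was 6 to 9.

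With IL-4 the list split. In WT 4 of its genes rose and 11 fell (beside 24.9% of all genes called higher and 25.1% lower), and in KO 4 rose and 8 fell (beside 26.8% and 26.0%). Traf5 (2.20 in WT and 2.16 in KO, edgeR adjusted p = 1.28e-08 and 9.76e-09) and Nfkb1 (1.47 and 1.88, edgeR adjusted p = 1.64e-09 and 1.70e-10) rose most. Traf1 (-2.58 and -1.53, edgeR adjusted p = 9.07e-10 and 5.06e-08) and Nfkbia (-1.44 and -0.91, edgeR adjusted p = 4.60e-09 and 2.50e-07) fell most. Of the 8 genes whose responses differed, Nfkb1 and Tnfaip3 rose more in KO. Traf1, Nfkb2, Relb, Nfkbia and Nfkbie fell less in KO than in WT, and Nfkbib fell in WT (-0.52) and had a change of -0.03 in KO (edgeR adjusted p = 0.719). Traf1 and Nfkb2 showed the greatest differences between the responses, 1.05 (SE 0.15, edgeR adjusted p = 0.00410) and 0.79 (SE 0.10, edgeR adjusted p = 0.00363). For Traf1 this was a fall from 46.2 to 7.72 CPM in WT and from 31.5 to 10.9 CPM in KO.

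**Figure D4:**
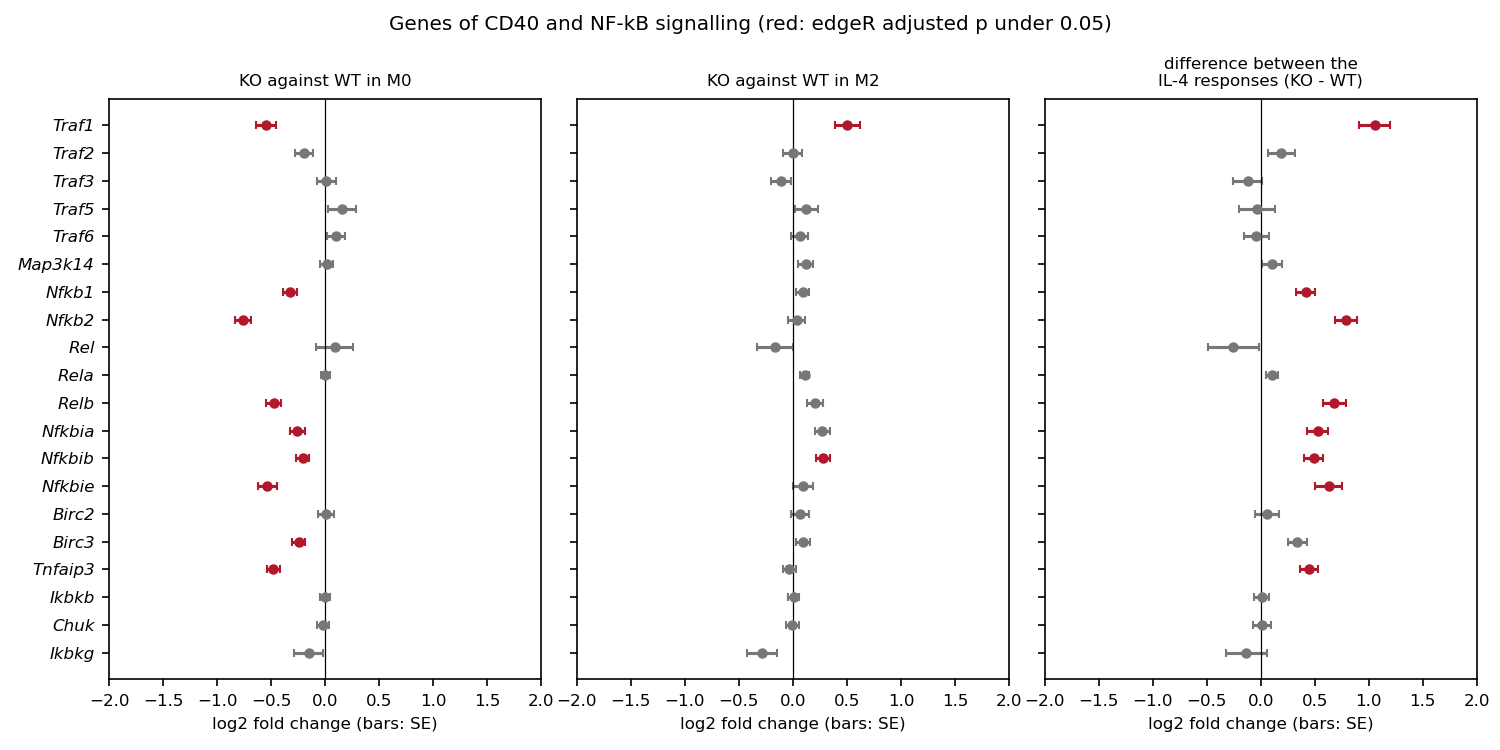
Log2 fold changes (horizontal axes, bars are SE) of the 20 listed genes of CD40 and NF-kB signalling, for KO against WT in M0, in M2, and for the difference between the IL-4 responses. Red marks an edgeR adjusted p under 0.05. The 9 red genes of the first panel lie below 0 and the 8 red genes of the last lie above 0.

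Cd200r1, the inhibitory receptor for CD200, was higher at rest in KO and reached an overlapping range with IL-4. It measured 30.92, 27.63 and 30.22 TPM in WT M0 and 43.53, 38.66 and 41.42 TPM in KO M0, without overlap. In M2 it measured 135.84, 137.94 and 123.01 TPM in WT and 120.18, 126.96 and 126.65 TPM in KO, with overlap. The log2 fold change between genotypes was 0.48 in M0 (SE 0.06, edgeR adjusted p = 0.00103) and -0.06 in M2 (95% interval -0.19 to 0.07, edgeR adjusted p = 0.609). IL-4 raised it by 2.22 in WT (SE 0.06, edgeR adjusted p = 4.08e-11) and 1.68 in KO (SE 0.06, edgeR adjusted p = 2.80e-10), a difference of -0.54 (SE 0.09, edgeR adjusted p = 0.00755). The M0 difference and the difference between the responses were called in all other fits. Its counts were fractional in 10 libraries, which shows that some reads were divided with other genes.

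Sirpa and its ligand Cd47 rose with IL-4 by similar amounts in both genotypes. Sirpa measured 709.05, 637.31 and 579.24 TPM in WT M0, 1057.73, 959.85 and 881.91 in WT M2, 635.88, 635.85 and 648.69 in KO M0, and 877.70, 968.95 and 947.94 in KO M2, so M2 lay above M0 and the genotypes overlapped. Its log2 fold change with IL-4 was 0.66 in WT (SE 0.06, edgeR adjusted p = 1.02e-06) and 0.63 in KO (SE 0.06, edgeR adjusted p = 1.36e-06), which differed by -0.03 (95% interval -0.21 to 0.15). Cd47 measured 177.08, 189.49 and 199.03 TPM in WT M0, 225.81, 215.59 and 228.27 in WT M2, 195.63, 193.86 and 192.37 in KO M0, and 235.42, 238.31 and 223.37 in KO M2, with the same pattern of overlap. Its change of 0.23 in WT (SE 0.04, edgeR adjusted p = 0.000440) and 0.28 in KO (SE 0.04, edgeR adjusted p = 8.34e-05) was the smallest rise of the 10 genes in KO, and the responses differed by 0.05 (95% interval -0.08 to 0.17). Its counts were fractional in 11 libraries. The ratio of Sirpa to Cd47 in TPM was 3.43 ± 0.550 in WT M0 and 4.33 ± 0.423 in WT M2, and 3.30 ± 0.0635 in KO M0 and 4.01 ± 0.262 in KO M2 (mean ± SD, n = 3).

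Relatives of these receptors did not follow one direction. Among the 3 paralogs of SIRP alpha, which lack its inhibitory tail, Sirpb1c was higher in KO M0 (log2 fold change 0.59, SE 0.09, edgeR adjusted p = 0.00226), and Sirpb1b fell with IL-4 in WT (-0.38, edgeR adjusted p = 0.0306, a call lost in 5 of 16 other fits) and in KO (-0.57, edgeR adjusted p = 0.00162). Sirpb1a fell in KO (-0.52, edgeR adjusted p = 0.0120, a call lost in 1 of 16 other fits), so that 1 of the 3 fell in WT and 2 in KO, beside 25.1% and 26.0% of all genes. Reads of such near copies may be divided with error. Another list held 26 genes of other myeloid receptors, most but not all of them inhibitory, and of phosphatases and adaptors that act below such receptors. Of these, 20 were tested, and IL-4 raised 7 and lowered 9 in each genotype (beside 24.9% of all genes called higher and 25.1% lower in WT, and 26.8% and 26.0% in KO). Fcgr2b, the inhibitory IgG receptor, rose by 3.61 in WT and 4.70 in KO (edgeR adjusted p = 1.59e-08 and 2.29e-09), and Cd72, an inhibitory lectin better known from B cells, by 1.85 and 1.78 (edgeR adjusted p = 1.99e-09 and 2.71e-09). Those that fell most in WT were Cd101 (from a mean of 1.32 to 0.327 CPM, edgeR adjusted p = 0.000265) and Cd33 (log2 fold change -1.80, edgeR adjusted p = 6.83e-05). In KO they were Pilra (-1.81, edgeR adjusted p = 1.08e-05) and Siglece (-1.60, edgeR adjusted p = 1.00e-05). In M0, Pilra (0.86, edgeR adjusted p = 0.0197) and Pirb (0.30, edgeR adjusted p = 0.0138), both inhibitory receptors, were higher in KO and Fcgr2b was lower (-0.82, edgeR adjusted p = 0.0345), beside 5.50% of all genes higher and 4.27% lower, but each call was lost in 2 to 8 of 16 other fits. In M2 edgeR called 0 of the 20 genes between genotypes, beside 2.68% of all genes, and the other fits 0 to 1.

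Vsir responded to IL-4 in opposite directions in the 2 genotypes. It measured 61.95, 47.49 and 55.84 TPM in WT M0 and 66.22, 62.92 and 66.58 TPM in WT M2, and 94.63, 87.25 and 91.85 TPM in KO M0 and 68.55, 69.50 and 67.24 TPM in KO M2. KO M0 stood above all other groups, and IL-4 brought WT up and KO down to nearly the same level. IL-4 raised it by a log2 of 0.34 in WT (SE 0.05, edgeR adjusted p = 0.000172), with a rise in 3 of 3 mice, and lowered it in KO (log2 fold change -0.35, SE 0.05, edgeR adjusted p = 0.000102), with a fall in 3 of 3 mice. The difference between the responses was -0.70 (SE 0.08, edgeR adjusted p = 0.00185). KO exceeded WT by 0.70 in M0 (SE 0.05, edgeR adjusted p = 3.52e-05), with 181 ± 3.93 against 112 ± 5.73 CPM (mean ± SD, n = 3). In M2 KO measured 141 ± 8.00 CPM and WT 141 ± 5.34 CPM (log2 fold change 0.00034, 95% interval -0.12 to 0.12, edgeR adjusted p = 0.998). The M2 libraries of the genotypes overlapped in CPM but not in TPM, which also uses a transcript length estimated per library (3501 to 4176 nt). Both genotype calls of Vsir, in M0 and for the difference between the responses, were made in all other fits. Vsir lies within Cdh23, which is on the opposite strand and averaged 0.131 CPM.

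**Figure D5:**
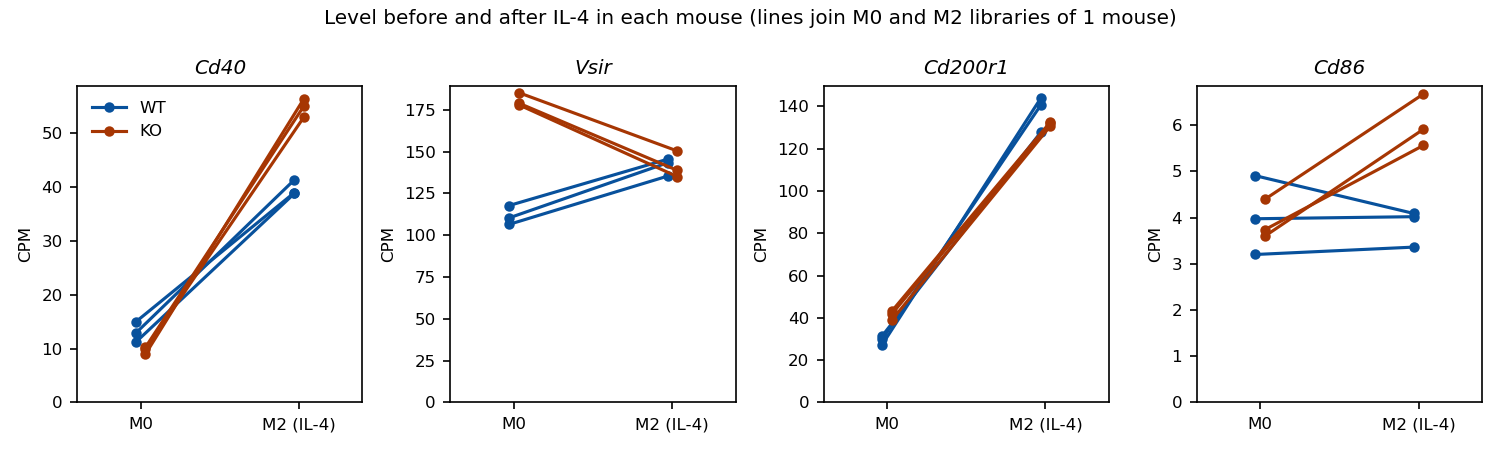
Level in CPM (vertical axes, linear from 0) before and after IL-4 for Cd40, Vsir, Cd200r1 and Cd86. Each line joins the M0 and M2 libraries of 1 mouse, WT in blue and KO in orange. The Vsir lines rise in 3 of 3 WT mice and fall in 3 of 3 KO mice, and the Cd40 lines of KO start lower and end higher than those of WT.

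Havcr2 did not rise. It measured 33.43, 30.45 and 23.56 TPM in WT M0, 28.46, 28.27 and 26.78 TPM in WT M2, 29.53, 26.50 and 26.43 TPM in KO M0, and 22.03, 23.11 and 23.36 TPM in KO M2. The KO M2 libraries lay below all others, while the remaining groups overlapped. The log2 fold change with IL-4 was -0.00018 in WT (SE 0.08, edgeR adjusted p = 0.999) and -0.18 in KO (SE 0.08, edgeR adjusted p = 0.0792). The change in KO passed the test in 3 of 10 alternative fits. These were the fits with the mouse as a block (-0.18, edgeR adjusted p = 0.0265), only the 6 libraries (0.0150) and thinned libraries (0.0428). It passed in 0 of 6 fits without 1 library. The M2 difference between genotypes was -0.26 (SE 0.08, edgeR adjusted p = 0.115).

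Of 20 other ligands of T cell co-receptors, 13 were tested. IL-4 raised 2 and lowered 3 of them in WT, and raised 3 and lowered 3 in KO, beside the same shares of all genes. Icosl, the ligand of ICOS, fell by 3.38 on the log2 scale in WT and by 2.70 in KO (edgeR adjusted p = 2.21e-07 and 6.66e-07), and Tnfsf9, the 4-1BB ligand, fell by 1.64 and 1.82 (edgeR adjusted p = 3.63e-07 and 5.24e-08). Cd24a rose by 1.11 in WT and 0.88 in KO (edgeR adjusted p = 0.0166 and 0.0315), calls lost in 3 and 9 of 16 other fits. Cd48 rose by 0.48 and 0.31 (edgeR adjusted p = 1.03e-05 and 0.000310), and Cd276 (B7-H3) by 0.97 in KO (edgeR adjusted p = 0.000128), where its change in WT was -0.08 (edgeR adjusted p = 0.723). In M0, 3 were higher in KO and 0 lower (beside 5.50% and 4.27% of all genes), and 0 to 5 were higher and 0 to 2 lower when 1 library was left out. Among the 3 were Ceacam1, a ligand of TIM-3 (0.86, edgeR adjusted p = 0.0287), and Tnfsf9 (0.43, edgeR adjusted p = 0.0309), with calls lost in 4 and 7 of 16 other fits. Cd276 was the 1 gene called in M2 (0.63, edgeR adjusted p = 0.0498, beside 1.21% of all genes called higher), a call lost in 13 of 16 other fits. The KO response of Cd276 minus the WT response was 1.05 (edgeR adjusted p = 0.0233), a call lost in 7 of 21 other fits.

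The genes most like a member over the 12 libraries were found among 9746 genes by Pearson's r of log2(CPM + 1), as a description, since all points share the 4 groups. Cd40 was most like Tmem158 (r = 0.996), Ccdc115 (0.995) and Chst7 (0.992). Cd200r1 was most like Zfp36l1 (0.998), Snx1 (0.998) and Arhgap6 (0.996). For Vsir the closest were Unc13d (0.927), Dennd1b (0.923) and Inpp4a (0.913). Cd274 was closest to Maml2 (0.995), Pla2g15 (0.994) and Csf3r (0.993), and Pdcd1lg2 to Kcnd3 (0.999), Plxdc2 (0.998) and Plxnd1 (0.998).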

How the data were processed

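The authors deposited, per library and gene, expected counts and TPM from single-end 75 nt poly(A) reads run through the Grape-nf pipeline on GRCm38. The step that made the counts and its strand setting are not given in the sources used here. The deposited DESeq2 tables hold the authors' fold changes and p-values, of which only the gene symbols were used. Gene positions are those of GENCODE on GRCm38. The 10 genes and the gene lists were chosen with earlier results of these data known. Every member was named, and for each list the 2 called genes with the largest change in each direction. A result that this rule gives is not reported here.

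Expected counts were rounded, filtered with filterByExpr and fitted over all 12 libraries, each group with its own coefficient, by the quasi-likelihood F test of edgeR 4.0.16 with TMM factors in R 4.3.3. Benjamini-Hochberg adjustment covered all 12846 genes, and calls were made at adjusted values under 0.05. The biological coefficient of variation was 8.08%. The fit was also run on simulated counts with the same spread for all genes and no pairing of libraries. The outcome of that run is not given here, and it does not cover paired or unevenly variable libraries. An exact permutation test of 3 against 3 libraries cannot give a p under 0.1. M0 and M2 libraries that share a genotype and number by label varied together (correlation of deviations from group means 0.331, 0.103 and 0.364 in WT, 0.166, 0.160 and 0.209 in KO) and were taken as pairs of 1 mouse, whereas same-numbered libraries of the 2 genotypes did not (-0.068 to 0.040). Alternatives were DESeq2 1.42.0, RLE factors, 2 other filters, limma 3.58.1 on log2(TPM + 1) and log2(TPM + 0.1), only the 6 libraries of a comparison, a replicate block, thinning to the smallest library, posterior mean counts, and leaving out each library.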

Additional observations from a re-analysis of the deposited data

Results flagged for a closer look

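For 3 of the 10 genes, WT and KO macrophages changed by unequal amounts under IL-4, as tested on that difference itself. The KO response minus the WT response was 0.89 on the log2 scale for Cd40 (edgeR adjusted p = 0.00405), greater in KO. It was -0.54 for Cd200r1 (edgeR adjusted p = 0.00755), smaller in KO, and -0.70 for Vsir (edgeR adjusted p = 0.00185), which rose in 3 of 3 WT mice and fell in 3 of 3 KO mice.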

How the results depend on the processing

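Of 834 refits of single member genes, 813 stayed on the same side of the threshold, 16 lost a call, 5 gained one and 0 changed sign with a call, while 45 changed sign without a call in either fit. The count of members called for KO against WT in M2, 2 with edgeR, was 1 with limma on log2(TPM + 1), 1 with limma on log2(TPM + 0.1), 1 with only the 6 libraries, and 0 to 1 when 1 library was left out. Over all genes the M2 count of 344 was 717 with DESeq2, 70 and 57 with limma, 165 with 6 libraries, and 25 to 298 without 1 library, lowest without KO M2 library 3. The M0 count of 1256 was 752 and 700 with limma and 461 to 1461 without 1 library, lowest without WT M0 library 2. For the difference between the responses the count of 416 was 825 with DESeq2, 113 with each limma fit, 1003 with the mouse as a block, and 183 to 643 without 1 library. The cause was not tested. The replicate block changed the calls of Cd86 (difference between the responses) and Havcr2 (IL-4 in KO) and no other member's call. Pairing by number across genotypes (M0 1322 and M2 413 genes) changed no member's call. Without WT M0 library 1 the Cd86 difference between the responses was called (0.84, edgeR adjusted p = 0.0396). Pdcd1lg2 in M0 is limited by depth, with 4 reads in 6 libraries.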

Other observations

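Receptors and ligands that pair with the 10 genes differed widely in level. Cd40lg and Pdcd1, which encode the CD40 ligand and PD-1, had 0 reads in all libraries, and Ctla4 had 1 read in all. Cd28, listed among the T cell markers and singled out here after its values were seen, measured 28.4 to 34.4 CPM in WT M0, 33.0 to 43.7 CPM in WT M2, 33.3 to 39.5 CPM in KO M0 and 39.6 to 45.1 CPM in KO M2. None of the 5 comparisons of Cd28 passed the test (edgeR adjusted p 0.203 to 0.982). Of the other T cell markers, Lck lay at 0.310 to 0.875 CPM and Thy1 at no more than 0.0454 CPM. Lgals9, which encodes the TIM-3 ligand galectin-9, lay at 65.6 to 92.0 CPM, and was higher in KO in M0 by a log2 of 0.23 (edgeR adjusted p = 0.0478), a call lost in 9 of 16 other fits. Cd200, the ligand of CD200R1, had 25 to 88 reads per group and fell with IL-4 in KO (log2 fold change -1.28, edgeR adjusted p = 0.00382, a call lost in 2 of 15 other fits), while its change in WT was -0.52 (edgeR adjusted p = 0.247).

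Of 10 dendritic cell markers, 4 were tested, and Batf3, Zbtb46 and Kmo rose with IL-4 in both genotypes. Zbtb46 and Kmo were so low in M0 that they passed the expression filter through their M2 libraries, which favours a rise. The number that rose therefore cannot be judged against the share of all genes called higher (24.9% in WT and 26.8% in KO). Batf3 went from 0.550 to 1.13 CPM in WT M0 to 10.3 to 11.5 CPM in WT M2 and from 0.691 to 1.11 CPM in KO M0 to 11.3 to 13.4 CPM in KO M2 (log2 fold change 3.66 and 3.72, edgeR adjusted p = 1.19e-08 and 6.50e-09). Zbtb46, a transcription factor of dendritic cells, went from 0.194 to 0.329 CPM in WT M0 to 1.38 to 2.11 CPM in WT M2 and from 0.239 to 0.404 CPM in KO M0 to 1.58 to 1.64 CPM in KO M2 (2.54 and 2.45, edgeR adjusted p = 1.32e-05 and 9.23e-06). Kmo stayed at or below 0.727 CPM in every library and changed by 1.60 and 2.51 (edgeR adjusted p = 0.0152 and 0.000441, the WT call lost without WT M2 library 3), while Fscn1, at most 1.36 CPM, had log2 fold changes of -0.62 and -0.82 that did not pass the test (edgeR adjusted p = 0.253 and 0.161). The other 6 markers lay at no more than 0.220 CPM in any library, and the whole list summed to at most 16.4 CPM in any library.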
